A study of Mus musculus with 1545 samples.

Results

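Complexins, synaptotagmins and the SV2 proteins act at the last step of neurotransmitter release, and 8 of their genes were followed here across single mouse neurons taken from the dorsal horn, where touch, itch and pain input enters the spinal cord. The genes were Cplx1 and Cplx2, Syt1, Syt2 and Syt4, and Sv2a, Sv2b and Sv2c, chosen by name from the 24378 genes of the deposited table, and all 8 had counts. The table holds 1545 cells of 3 kinds of mice. There were 537 cells from the vGat-Cre-tdTomato line, in which a Cre under the control of the vesicular GABA transporter gene marks inhibitory neurons with a red fluorescent protein. There were 371 cells from the vGlut2-eGFP line, in which green fluorescent protein marks excitatory neurons that use the vesicular glutamate transporter VGLUT2. The other 637 cells came from C57bl6 wild-type mice, which carry no reporter. No treatment is named for any group. A reporter follows the promoter that drives it, so each line samples the cells in which that promoter is or was active.

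Replicates were taken as animal sets, meaning all cells of 1 line with the same sex label and the same age label. The age labels are bare numbers, read here as days because the protocol speaks of mice a few weeks old. There were 3 vGat sets (17, 18 and 24 days), 4 vGlut2 sets (23, 24, 25 and 26 days) and 10 wild-type sets (18 to 28 days). Each cell had between 3012 and 32886 unique molecular identifiers (UMIs, tags that count each captured RNA molecule once), with medians of 10413 in vGat, 7030 in vGlut2 and 8687 in wild-type cells. Levels are given as CPM, the UMIs of a gene per 1000000 UMIs of the summed cells. The labels place the cells in 30 types, 14 inhibitory and 15 excitatory, plus 1 type of 18 cells which the labels call both Glut_Gal and Gaba1 and that was left out of both classes. The line labels matched the transmitter genes. Summed CPM of 5 inhibitory marker genes ran between 1448 and 1528 in the vGat sets and between 7.16 and 307.99 in the vGlut2 sets, and 3 excitatory marker genes summed to at most 1.15 CPM in the vGat sets and at least 578.3 CPM in the vGlut2 sets. The 26-day vGlut2 set stood apart. It had 17 cells, of which 5 were placed in inhibitory types, and 39988 CPM of 10 oligodendrocyte markers, against 78.2 to 2125 CPM in the other vGlut2 sets. The same markers gave 1481 to 4421 CPM in the vGat sets and 18803 to 51046 CPM in the wild-type sets. No capture run held cells of more than 1 line, so effects of line and of run cannot be told apart.

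Complexins are small cytosolic proteins that bind the assembled SNARE complex, hold vesicles ready and speed fusion when calcium enters. Synaptotagmin 1 and synaptotagmin 2 are the calcium sensors of fast release, whereas synaptotagmin 4 binds calcium poorly and sits largely on dense-core vesicles that carry peptides. SV2A, SV2B and SV2C are membrane proteins of synaptic vesicles, receptors for botulinum toxin A, and SV2A is also the binding site of the antiseizure drug levetiracetam. In rodent forebrain, complexin 1 has been described mainly at inhibitory and complexin 2 mainly at excitatory synapses.

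Cplx1 lies on mouse chromosome 5 (chr5:108518554-108550027, minus strand, RefSeq GRCm38.p6) and Cplx2 on chromosome 13 (chr13:54301964-54383923, plus strand). They are separate genes for proteins of the same length, and the results below turn on the balance between them. The first 300 coding bases of each are shown because they let a reader see how far the paralogs can be told apart by sequence. Capitals mark the 66 positions at which they differ in this stretch, with the GENCODE M21 transcripts on GRCm38 read 5′ to 3′ on the transcribed strand.
Cplx1: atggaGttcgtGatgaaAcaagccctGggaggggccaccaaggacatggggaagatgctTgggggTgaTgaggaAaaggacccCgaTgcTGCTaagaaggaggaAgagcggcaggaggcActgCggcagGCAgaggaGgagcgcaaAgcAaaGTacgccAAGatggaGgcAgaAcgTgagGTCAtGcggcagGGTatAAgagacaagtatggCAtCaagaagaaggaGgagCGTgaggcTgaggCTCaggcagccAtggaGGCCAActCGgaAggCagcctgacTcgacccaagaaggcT
Cplx2: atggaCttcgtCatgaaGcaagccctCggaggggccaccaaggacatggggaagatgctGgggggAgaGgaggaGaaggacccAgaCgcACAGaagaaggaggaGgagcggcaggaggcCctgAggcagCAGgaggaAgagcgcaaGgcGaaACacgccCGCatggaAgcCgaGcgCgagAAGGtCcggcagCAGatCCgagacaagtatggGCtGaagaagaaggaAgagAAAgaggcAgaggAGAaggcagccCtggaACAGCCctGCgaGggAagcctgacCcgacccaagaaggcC
Over the whole coding stretch 79.6% of the bases were identical, and the longest run that the 2 transcripts share without a difference was 32 bases. Among the other paralogs with a sequence read here, Syt1 and Syt2 were 72.6% identical over their aligned coding bases with a longest shared run of 26 bases. The 3 SV2 pairs were 63.4% to 65.7% identical, with longest shared runs of 15 to 26 bases.

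The window around a RefSeq transcription start (250 bases before it and 50 after) is shown for each complexin because both were higher in the inhibitory groups. Capitals mark the GC box GGGCGG on either strand, so a match on the other strand reads CCGCCC.
Cplx1, chr5:108549978-108550277, minus strand: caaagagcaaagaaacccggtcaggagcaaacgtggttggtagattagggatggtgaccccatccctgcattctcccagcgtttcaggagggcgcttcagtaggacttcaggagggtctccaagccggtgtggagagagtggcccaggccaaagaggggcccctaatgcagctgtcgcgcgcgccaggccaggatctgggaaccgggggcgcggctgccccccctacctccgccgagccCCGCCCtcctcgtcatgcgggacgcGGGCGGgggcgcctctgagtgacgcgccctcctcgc
Cplx2, chr13:54302306-54302605, plus strand: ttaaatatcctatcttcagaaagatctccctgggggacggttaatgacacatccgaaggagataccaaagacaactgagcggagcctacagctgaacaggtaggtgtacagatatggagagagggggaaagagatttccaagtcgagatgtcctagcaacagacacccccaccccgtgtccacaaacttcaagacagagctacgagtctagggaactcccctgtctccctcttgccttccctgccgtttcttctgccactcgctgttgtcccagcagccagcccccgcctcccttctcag
The Cplx1 window held 2 GC boxes and 67% G and C, and the Cplx2 window held none and 53.3% G and C. The motif is in 35.7% of the 32851 windows of this length, and the median window had 52.7% G and C. These are matches of letters and not binding sites. The windows are also placed differently. The Cplx1 window spans the 5′ end of the gene as given above (108550027), whereas the Cplx2 window lies wholly inside its gene, which begins at 54301964.

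Both complexins were 3 to 4 times higher in neurons of the vGat line than in neurons of the vGlut2 line. Cplx1 had 225.3, 199.96 and 180.6 CPM in the 17-, 18- and 24-day vGat sets, against 60.8, 57.4, 53.7 and 94.3 CPM in the 23-, 24-, 25- and 26-day vGlut2 sets. The lowest vGat set was above the highest vGlut2 set, which was the 26-day set. Cplx1 averaged 201.9 ± 22.4 CPM in vGat and 66.5 ± 18.7 CPM in vGlut2 (SD, n = 3 and 4), a log2 difference of 1.65 (SE 0.23, adjusted p = 0.000131, edgeR quasi-likelihood test, two-sided, with Benjamini-Hochberg adjustment over all 10598 genes tested). Cplx2 had 248.02, 236.7 and 250.3 CPM in the vGat sets, against 76.01, 95.7, 47.04 and 50.3 CPM in the vGlut2 sets. The 3 vGat values lay close together and far above every vGlut2 value. The log2 difference of Cplx2 was 1.95 (SE 0.23, adjusted p = 2.50e-05).

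The 3 synaptotagmins were also higher in vGat neurons. So were 4 neuron markers (Snap25, Rbfox3, Tubb3 and Stmn2), whose summed level was 4896 to 5815 CPM in the vGat sets and 3488 to 4728 CPM in the vGlut2 sets, with none at 0, and their part in the results between the lines was not tested. Syt1 had 663.8, 770.3 and 769.3 CPM in the vGat sets and 299.7, 382.7, 320.6 and 219.99 CPM in the vGlut2 sets, with no overlap, and its log2 difference was 1.23 (SE 0.18, adjusted p = 0.000266). Syt2, the sensor of very fast synapses in hindbrain and spinal cord, was rare. It had 11.4, 16.5 and 22.8 CPM in the vGat sets (94 UMIs in all). In the vGlut2 sets it had 4.34, 0, 4.60 and 0 CPM (11 UMIs in all), a log2 difference of 1.99 (SE 0.49, adjusted p = 0.0166). The values of 0 were in the small 24-day (19 cells, 104516 UMIs) and 26-day (17 cells, 159098 UMIs) sets. There 1 UMI equals 9.57 and 6.29 CPM, so a 0 is a weak limit. Syt4 had 589.9, 601.02 and 648.9 CPM in the vGat sets and 299.7, 392.3, 418.7 and 351.98 CPM in the vGlut2 sets. Its groups did not overlap, and its log2 difference of 0.70 (SE 0.18, adjusted p = 0.0182) was the smallest among the synaptotagmins.

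The SV2 isoforms split. Sv2b was the 1 member with a lower level in vGat neurons: 19.9, 13.8 and 19.1 CPM in the vGat sets and 43.4, 38.3, 53.2 and 6.29 CPM in the vGlut2 sets, a log2 difference of -1.37 (SE 0.32, adjusted p = 0.0106). The groups overlapped through the 26-day vGlut2 set, where Sv2b rested on 1 UMI. Sv2c was the rarest member and ran the other way, with 7.96, 12.6 and 18.4 CPM in the vGat sets (72 UMIs). In the vGlut2 sets it had 2.17, 0, 2.05 and 0 CPM (5 UMIs), a log2 difference of 2.69 (SE 0.60, adjusted p = 0.00779). As for Syt2, the values of 0 were in the small 24- and 26-day vGlut2 sets, where a 0 is a weak limit. Sv2a had 531.3, 500.7 and 506.5 CPM in the vGat sets and 271.5, 277.5, 373.2 and 402.3 CPM in the vGlut2 sets. The groups of Sv2a did not overlap, but its log2 difference of 0.57 (SE 0.20) did not pass the test (adjusted p = 0.0899).

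In all, 7 of 8 members passed an adjusted p of 0.05 between the reporter lines, 6 higher and 1 lower in vGat, where 8.85% of all genes tested passed, 4.32% higher and 4.53% lower. Without the 26-day vGlut2 set all 8 passed, Sv2a included, and 13.8% of all genes tested did. Without the 18-day vGat set only Cplx1, Cplx2 and Syt1 passed among the members, and 5.38% of all genes. When the 24-day vGat set was left out, or the 25-day vGlut2 set, 4 members passed, with 6.15% and 4.43% of all genes. Cplx1, Cplx2 and Syt1 passed in all 14 alternatives. Sv2c passed in each of the 10 alternatives that tested it, and the fit without the 18-day vGat set was not among these. With age as a covariate 5 members passed, and 3.2% of all genes. Syt4, Sv2a and Sv2b did not pass in that fit (edgeR, adjusted p of 0.126, 0.355 and 0.250). With the mean over cells of log2(CPM + 10) in place of summed UMIs, Sv2b had a difference of -0.25 (limma, adjusted p = 0.510). The scale differs from that of the edgeR values, so the sizes cannot be set side by side. In this fit 718 genes were higher and 96 lower in vGat, with a median difference of 0.19 over all genes tested.

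**Figure D1:**
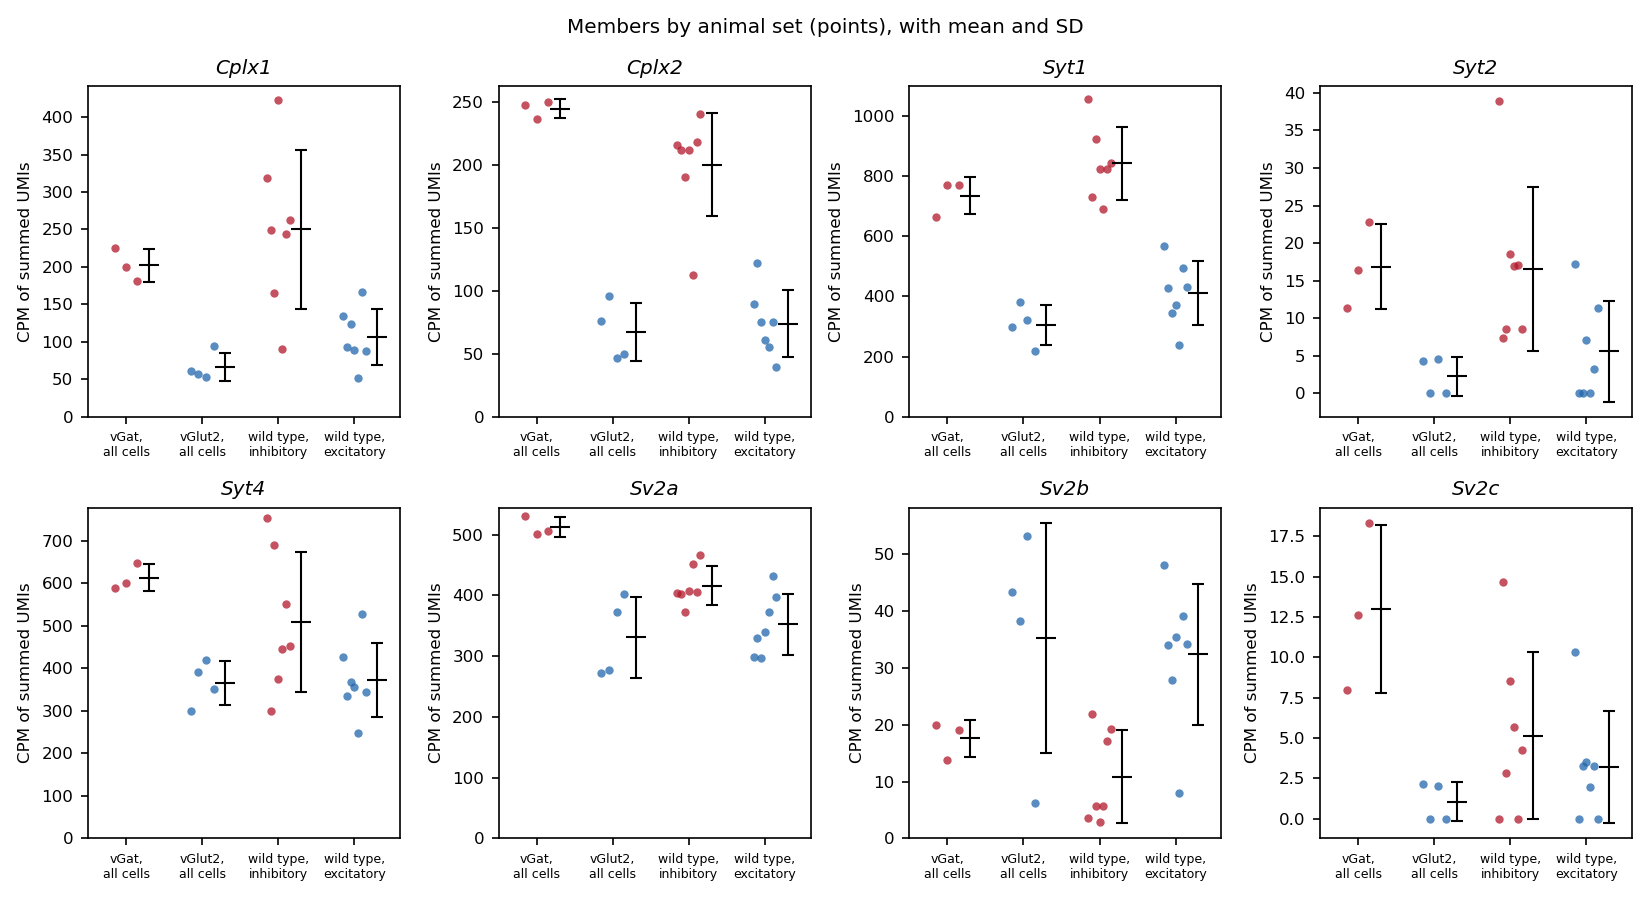
CPM of summed UMIs (y axis, linear) of the 8 members, 1 point for each animal set, with mean and SD beside the points, for vGat (3 sets) and vGlut2 (4 sets), all cells, and for inhibitory and excitatory wild-type cells of the 7 sets that had 10 or more cells in both classes. Red points are inhibitory and blue points excitatory groups. Cplx1, Cplx2 and Syt1 are higher in both red groups, and Sv2b is higher on average in both blue groups.

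The same question was asked within wild-type mice, where inhibitory and excitatory cells came from the same 7 animal sets and the set was a block in the model. The classes are the authors' own clusters of these cells, so this comparison is no independent evidence of class. Cplx1 had 90.5 to 422.7 CPM in inhibitory cells (median 249.01) and 51.7 to 166.6 CPM in excitatory cells (median 93.7). It was higher in inhibitory cells in 7 of 7 sets although the ranges overlapped, by a log2 difference of 1.20 (SE 0.19, adjusted p = 0.000418). Cplx2 had 113.1 to 240.8 CPM in inhibitory cells (median 212.4) and 39.95 to 122.03 CPM in excitatory cells (median 75.1), higher in 7 of 7 sets, by 1.47 (SE 0.18, adjusted p = 1.66e-05). Syt1 had 689.9 to 1057.9 CPM in inhibitory cells (median 825.5) and 238.8 to 567.1 CPM in excitatory cells (median 428.5), with no overlap, a log2 difference of 1.03 (SE 0.10, adjusted p = 1.29e-06).

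The other members gave no call in wild type with the counts as deposited. Syt4 averaged 509.97 ± 165.2 CPM in inhibitory cells and 372.6 ± 86.8 CPM in excitatory cells (SD, n = 7 each), with a log2 difference of 0.40 (SE 0.13, adjusted p = 0.0783). With every cell thinned to 3000 UMIs it passed (0.52, SE 0.14, adjusted p = 0.0128). Sv2a averaged 415.9 ± 32.3 CPM in inhibitory cells and 352.2 ± 50.4 CPM in excitatory cells, with a log2 difference of 0.21 (SE 0.10, adjusted p = 0.292). Syt2, Sv2b and Sv2c had too few UMIs for the count filter. Sv2b had 2.85 to 21.97 CPM in inhibitory cells and 7.96 to 48.1 CPM in excitatory cells and was lower in inhibitory cells in 7 of 7 sets. With no count filter its log2 difference was -1.82 (SE 0.39, adjusted p = 0.000184), while Syt2 (1.53, adjusted p = 0.121) and Sv2c (0.63, adjusted p = 0.926) did not pass.

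So 3 of the 5 members tested were called in wild type, where 5.64% of 6170 genes passed. Of those 6170, 3.13% were called with more and 2.51% with less RNA in inhibitory cells. In a further fit each type with at least 3 cells in a set weighed the same, whatever its number of cells beyond that. It used limma on log2(CPM + 10) in place of edgeR on summed UMIs, and 2.46% of the 6170 genes passed. No member passed (limma, adjusted p of 0.104 for Syt1, 0.359 for Cplx1 and 0.436 for Cplx2). Their differences on this scale were 0.61, 0.67 and 0.75.

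**Figure D2:**
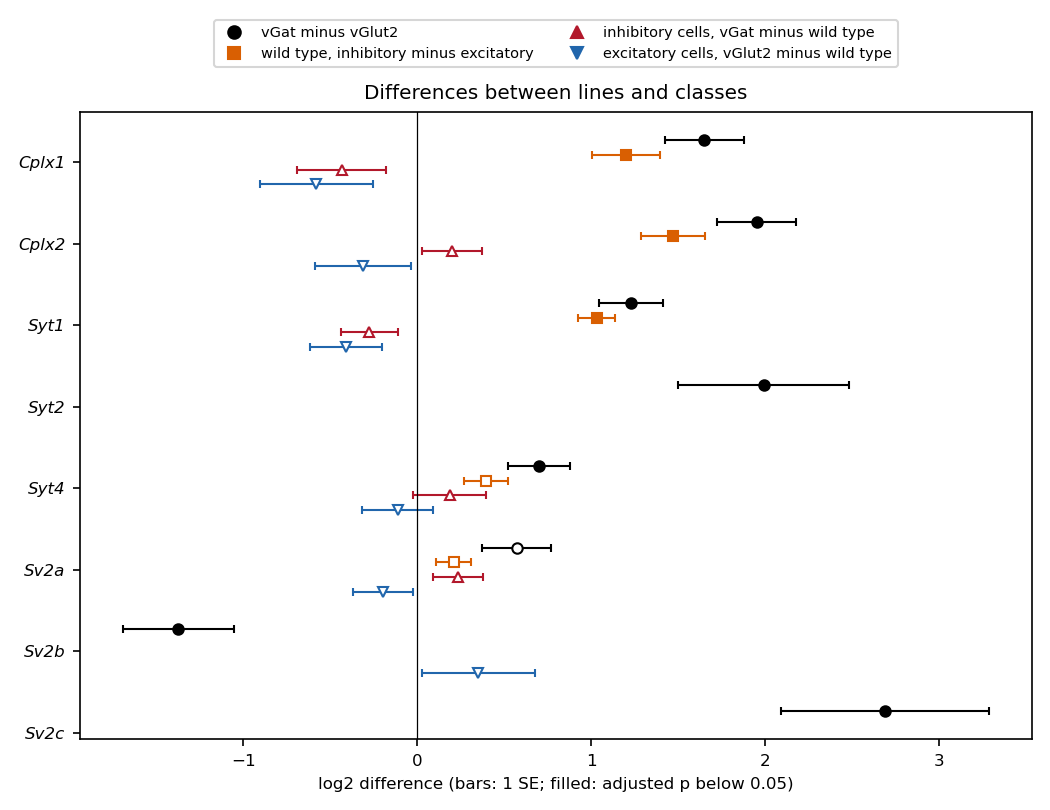
Log2 difference of each member (x axis, bars 1 SE) for vGat minus vGlut2, inhibitory minus excitatory cells of wild type, vGat minus wild type among inhibitory cells, and vGlut2 minus wild type among excitatory cells. Filled markers passed an adjusted p of 0.05. Cplx1, Cplx2 and Syt1 have filled markers to the right of 0 for both class comparisons, and all line-against-wild-type markers are open.

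Within a class, no member was called between a reporter line and wild type. Among inhibitory cells (3 vGat sets against 7 wild-type sets) the 5 members tested had log2 differences of -0.43 (SE 0.26) for Cplx1, 0.20 (SE 0.17) for Cplx2, -0.27 (SE 0.16) for Syt1, 0.19 (SE 0.21) for Syt4 and 0.24 (SE 0.15) for Sv2a. Of all genes tested, 21.3% were called in that comparison, 8.39% higher and 12.9% lower in vGat cells. Among excitatory cells (4 vGlut2 sets against 9 wild-type sets) the 6 members tested had log2 differences between -0.58 (SE 0.33, Cplx1) and 0.35 (SE 0.33, Sv2b), and 15.4% of all genes were called, 5.08% higher and 10.4% lower in vGlut2 cells. By edgeR 0 members passed in either comparison, 0 had an unadjusted p under 0.05, and DESeq2 also called 0. Without the 26-day vGlut2 set, Cplx1 was called lower in excitatory vGlut2 cells (log2 difference -0.87, SE 0.30, adjusted p = 0.0476). Oligodendrocyte markers differed between these groups by the values above, and their part in these results was not tested.

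The difference between the classes in the reporter lines was set against that in wild type by an interaction term. In this fit the inhibitory and excitatory sums of a wild-type set entered as separate samples, so their pairing was not used. The interaction gave 0 calls among the 6 members tested by edgeR, 0 unadjusted p under 0.05 and 0 calls by DESeq2. Of all genes, 0.289% were called, 0.0842% with a larger and 0.204% with a smaller value in the reporter lines. The extra difference was 0.19 (SE 0.45) for Cplx1, 0.53 (SE 0.33) for Cplx2 and 0.14 (SE 0.27) for Syt1. Across the 8 wild-type sets labelled male with at least 10 cells, the slope with age gave 0 calls among 6 members by edgeR, 0 unadjusted p under 0.05 and 0 calls by DESeq2, with 0.068% of all genes called, 0.034% in each direction. The slopes lay between 0.00 and 0.06 log2 units a day.

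Levels also varied among the 30 types. Because the types were made by clustering these cells with their genes, their levels are a description and were not tested, and the 4 types the authors named for Cplx1 (GABA_Cplx1_Calb2, GABA_Cplx1_Adamts5, GABA_Cplx1_Sorcs3 and GABA_Cplx1_Sst) are high in it by choice. Cplx1 was highest in GABA_Crabp1, at 702 CPM (exact Poisson 95% interval 630 to 781, which covers counting error only), where 4 sets with at least 5 cells averaged 706.00 ± 206.9 CPM (SD). It was lowest in Glut_Reln_Npff, at 7.30 CPM from 2 UMIs (interval 0.88 to 26.4). Between these ends, 6 of the 10 types with most Cplx1 were inhibitory and 4 were the excitatory types Glut_Cck_Maf, Glut_Elavl4, Glut_Elavl4_Meis2 and Glut_Cck_Cpne4, with 298.7, 214.4, 195.9 and 193.8 CPM. Neighbours in this order rarely parted: in 1 of 29 neighbouring pairs the counting intervals were apart, and in 1 of the 20 pairs with an SD in both types the means were apart by more than their SDs.

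Cplx2 was highest in GABA_Cplx1_Adamts5 (472.2 CPM, interval 417.05 to 532.6), and 9 of its top 10 types were inhibitory. Its lowest levels were in Glut_Cck_Trh (13.7 CPM, 4 UMIs) and Glut_Cck_Maf (25.6 CPM, 6 UMIs). The median was 208.4 CPM over inhibitory and 53.2 CPM over excitatory types for Cplx2, and 136.3 and 56.1 CPM for Cplx1.

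**Figure D3:**
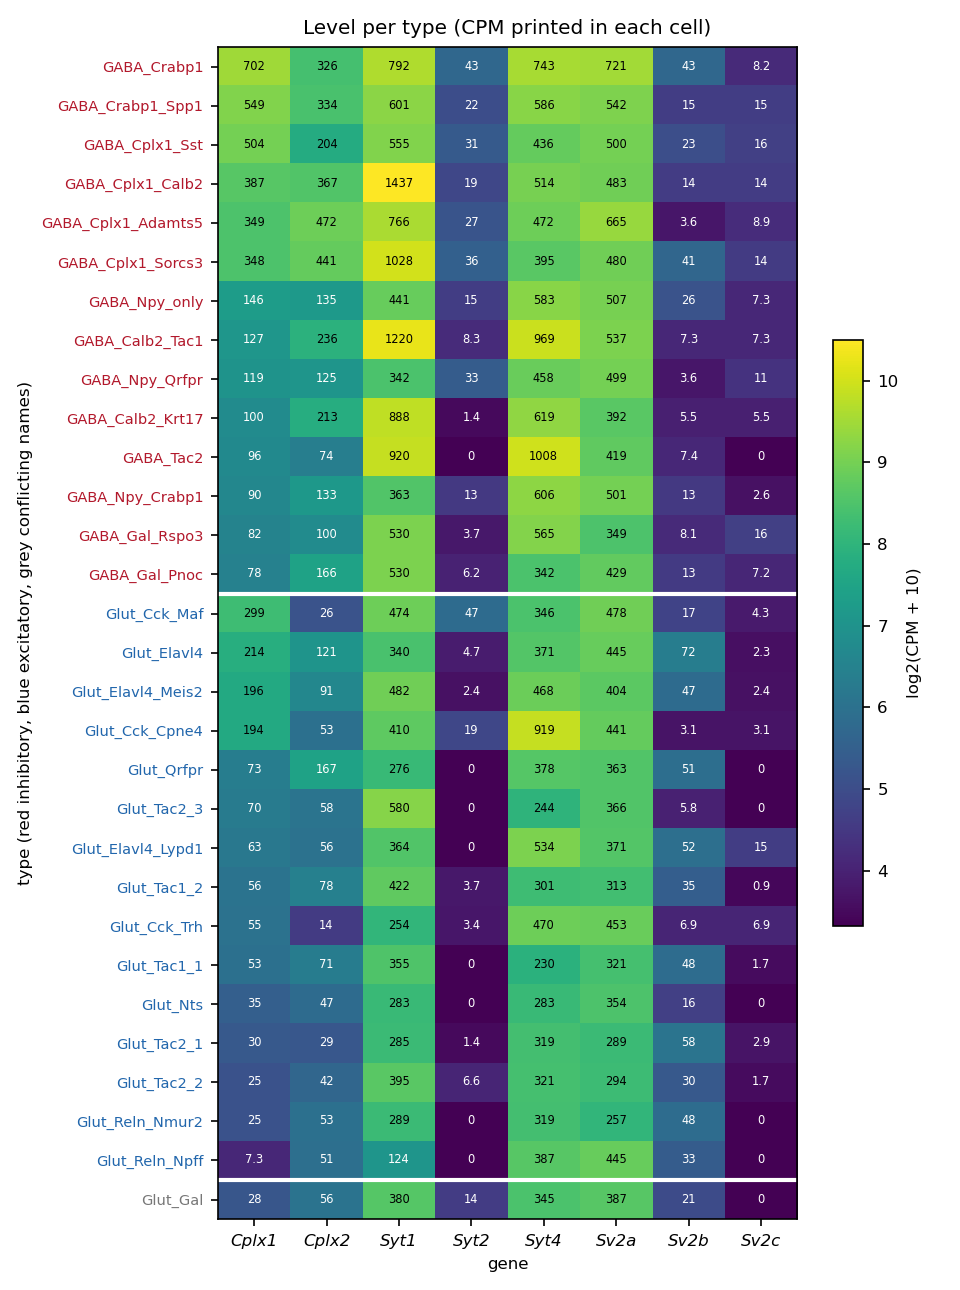
Level of the 8 members (columns) in the 30 types (rows, inhibitory above excitatory, each ordered by Cplx1), coloured by log2(CPM + 10) with the CPM of the summed cells printed in each field. Cplx1 runs between 702 CPM in GABA_Crabp1 and 7.30 CPM in Glut_Reln_Npff, while Sv2a stays between 721 and 256.7 CPM.

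The balance between the complexins overlapped between the lines and varied among types. UMIs count tagged molecules and were not divided by gene length, so a share compares types and not the absolute amounts of 2 genes. Cplx1 made up 41.9% to 47.6% of complexin UMIs in the vGat sets and 37.5% to 65.2% in the vGlut2 sets. Over types the share ran between 12.5% in Glut_Reln_Npff (2 of 16 UMIs) and 92.1% in Glut_Cck_Maf (70 of 76 UMIs, exact binomial interval 83.6% to 97.05%). Cplx1 outnumbered Cplx2 in 14 types, 6 inhibitory and 8 excitatory, and the interval lay wholly above an even split in 8 types and wholly below it in 8.

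The 3 excitatory types named for Cck, the gene of the neuropeptide cholecystokinin, had the 3 highest Cplx1 shares. The share was 92.1% in Glut_Cck_Maf, 80.0% in Glut_Cck_Trh (16 of 20 UMIs, interval 56.3% to 94.3%) and 78.5% in Glut_Cck_Cpne4 (62 of 79 UMIs, interval 67.8% to 86.9%). In reporter-line cells alone these types had 86.96%, 75% and 71.4%, and in wild-type cells alone 94.3%, 100% (4 of 4 UMIs) and 81.03%. They were not the highest 3 in either subset, since Glut_Nts had 100% in reporter-line cells (5 of 5 UMIs), and in wild-type cells GABA_Npy_Crabp1 had 100% (1 of 1 UMI) and GABA_Cplx1_Sst 88.1% (interval 81.5% to 93.1%). After thinning, Glut_Cck_Trh had 66.7% (6 of 9 UMIs), below GABA_Cplx1_Sst and GABA_Crabp1. At the other end, the interval lay below an even split in GABA_Calb2_Krt17 (31.9%), GABA_Gal_Pnoc (32.1%), GABA_Calb2_Tac1 (34.96%), GABA_Cplx1_Adamts5 (42.5%) and GABA_Cplx1_Sorcs3 (44.1%) among inhibitory types. Among excitatory types it did so in Glut_Reln_Npff, Glut_Qrfpr (30.3%) and Glut_Reln_Nmur2 (31.7%). Even the types named for Cplx1 differed, since GABA_Cplx1_Sst had a share of 71.2% (interval 66.3% to 75.8%).

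**Figure D4:**
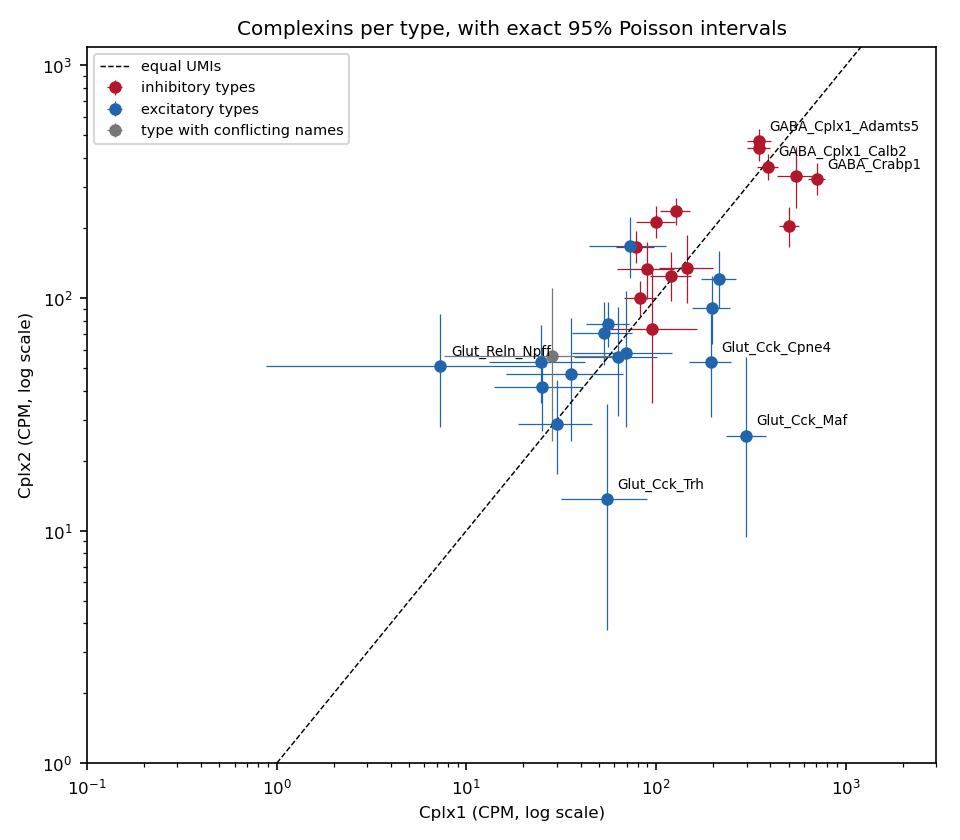
Cplx2 against Cplx1 in CPM (both axes logarithmic), 1 point for each of 30 types with exact 95% Poisson intervals, red for inhibitory, blue for excitatory and grey for the type with conflicting names. The dashed line marks equal UMIs. The 3 Glut_Cck types lie below the line, with Glut_Cck_Maf at 298.7 CPM of Cplx1 and 25.6 CPM of Cplx2, and Glut_Reln_Npff lies above it.

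With sets pooled, cells with both complexins were more frequent among inhibitory than excitatory cells, as shares with no test. With every cell thinned to 3000 UMIs, 18.1% of vGat cells and 1.62% of vGlut2 cells had a UMI of both (97 of 537 and 6 of 371 cells), and 52.9% and 8.89% did so unthinned. In wild type it was 17.6% of inhibitory and 4.12% of excitatory cells after thinning, and 41.95% and 12.6% unthinned. By set, the thinned wild-type shares were 5.26% to 21.4% in inhibitory and 0% to 7.89% in excitatory cells. In the 21-day set the order was reversed after thinning, with 5.26% of inhibitory and 7.32% of excitatory cells. Each complexin alone was also higher in inhibitory cells, and the part of this in the shares was not tested. All types here are neurons, so no cell type that should lack the complexins was at hand to measure free RNA.

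Syt1 and Syt4 were found in most cells and their balance also shifted between types. Syt1 was highest in GABA_Cplx1_Calb2 at 1437 CPM (interval 1346 to 1533) and lowest in Glut_Reln_Npff at 124.1 CPM (interval 85.9 to 173.4). Syt4 was highest in GABA_Tac2 at 1008 CPM (11 cells) and lowest in Glut_Tac1_1 at 230 CPM, and Glut_Cck_Cpne4 reached 919 CPM as the highest excitatory type. The share of Syt4 among Syt1 and Syt4 UMIs ran between 26.3% in GABA_Cplx1_Calb2 (interval 23.9% to 28.9%) and 75.7% in Glut_Reln_Npff (interval 67.8% to 82.6%). Syt4 UMIs outnumbered those of Syt1 in 13 types. By set, the share of Syt4 was 45.5% ± 1.62 in vGat and 54.7% ± 5.46 in vGlut2 neurons (SD, n = 3 and 4), and 37.0% ± 5.34 in inhibitory and 47.8% ± 3.90 in excitatory wild-type neurons (SD, n = 7 each).

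Syt2 made up at most 9.02% of Syt1 and Syt2 UMIs in any type. Its highest level was in Glut_Cck_Maf, at 46.9 CPM (11 UMIs, interval 23.4 to 83.99), where 2 sets averaged 62.3 ± 5.03 CPM (SD). It was followed by GABA_Crabp1 and GABA_Cplx1_Sorcs3 (21 UMIs each), and no neighbouring pair in the order had separate counting intervals. In 8 types no UMI of Syt2 was seen, which in Glut_Reln_Npff allows up to 10.95 CPM (3 counts of the total) and in GABA_Tac2 up to 22.1 CPM. Among reporter-line cells alone, Syt2 was highest in GABA_Crabp1_Spp1 (43.4 CPM, 3 UMIs), and Glut_Cck_Maf had 35.2 CPM (3 UMIs).

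Sv2a was the flattest member over types, between 721 CPM in GABA_Crabp1 and 256.7 CPM in Glut_Reln_Nmur2, with a coefficient of variation of 0.24, against 1.04 for Cplx1 and 0.57 for Syt1. It made up 82.7% to 98.6% of SV2 UMIs in every type. Sv2b took up most of the remainder in excitatory types, with a median share of 9.92% there and 2.54% in inhibitory types. Its share was highest in Glut_Tac2_1 (16.5%, interval 12.03% to 21.7%), Glut_Reln_Nmur2 (15.6%) and Glut_Elavl4 (13.9%). The excitatory Glut_Cck_Cpne4, Glut_Cck_Trh and Glut_Tac2_3 had only 0.699%, 1.47% and 1.56%, from 1 or 2 UMIs each, and Glut_Cck_Maf had 3.42% (4 UMIs). Among inhibitory types the highest share was in GABA_Cplx1_Sorcs3, at 7.69% (interval 4.99% to 11.2%).

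Sv2c had 99 UMIs in the whole table, too few to order the types. With cells of all mice pooled, GABA_Gal_Rspo3 had 15.5 CPM (21 UMIs, interval 9.62 to 23.8) and GABA_Cplx1_Sst also 15.5 CPM (8 UMIs, interval 6.70 to 30.6). By sets they averaged 11.4 ± 16.6 CPM (SD, n = 7) and 19.7 ± 4.61 CPM (SD, n = 3). No UMI of it was seen in 7 types. By set, Sv2b was 3.23% ± 0.53 of SV2 UMIs in vGat and 9.94% ± 5.64 in vGlut2 neurons (SD, n = 3 and 4), where the 26-day set had 1.54% and the others 12.1% to 13.7%.

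**Figure D5:**
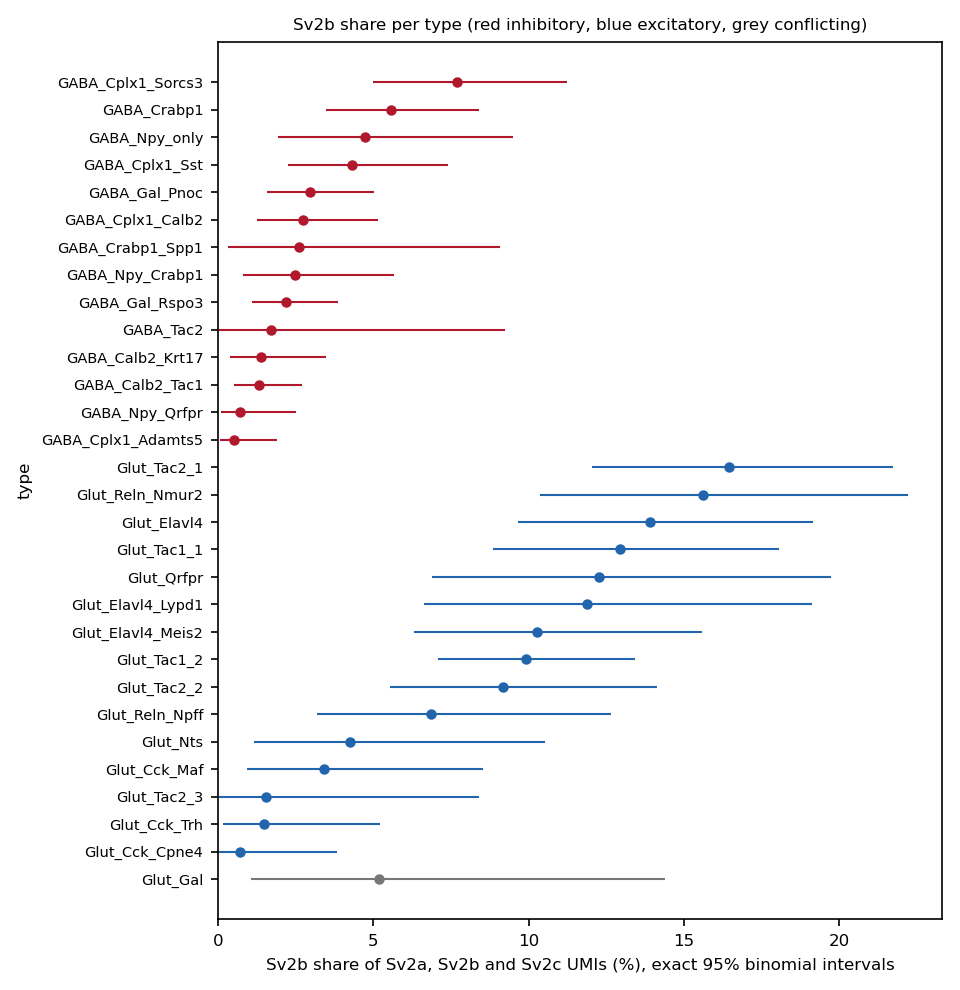
Share of Sv2b among Sv2a, Sv2b and Sv2c UMIs in percent (x axis) for each type (y axis), with exact 95% binomial intervals, red for inhibitory, blue for excitatory and grey for the type with conflicting names. Rows are grouped by class. Glut_Tac2_1 has the highest share, 16.5%, and the shares of the Glut_Cck types lie within the range of the inhibitory types.

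Over the 22 types with at least 10 wild-type and 10 reporter-line cells, levels in reporter-line cells followed those in wild-type cells to different degrees (Pearson r of log2(CPM + 10)). The value was 0.86 for Cplx1 and Syt1, 0.77 for Syt2, 0.74 for Syt4, 0.68 for Sv2b, 0.67 for Cplx2, 0.66 for Sv2a and 0.32 for Sv2c. Every member had a lower value over the 12 excitatory than over the 10 inhibitory types. For Cplx2 it was 0.88 over inhibitory and 0.09 over excitatory types, and for Sv2c 0.44 and 0.004. The other members had 0.78 to 0.95 over inhibitory and 0.45 to 0.79 over excitatory types. The types share libraries and clustering, so these values are descriptions.

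By the same measure over all 30 types, the genes most like Cplx1 were Cend1 (r = 0.91), Slc25a5 (0.91) and Atp1b1 (0.89), and those most like Cplx2 were Pcp4l1 (0.83), Ndufa4 (0.82) and Sall3 (0.81). Those most like Syt1 were Id2 (0.80), Aff3 (0.76) and Sall3 (0.76), and those most like Syt4 were Rit2 (0.82), Rorb (0.76) and Cacna2d3 (0.76). Sv2a was most like Ndrg4 (0.83), Ndufb9 (0.82) and Cend1 (0.82), and Sv2b most like Cbln4 (0.66), Fam19a1 (0.64) and Rpl35a (0.63). Syt2 was most like Cplx1 (0.75), Asb13 (0.74) and Cnnm1 (0.73), and Sv2c most like Ppm1e (0.79), Pgk1 (0.72) and Bsn (0.71). The compared genes had at least 50 CPM in a type and 300 UMIs. Syt2 and Sv2c themselves fell below both limits, so counting error weighs heavily on their values and no likeness is read from them. Cplx1 and Cplx2 had a value of 0.68 with each other, and Sv2b had negative values with every other member, between -0.10 with Cplx2 and -0.42 with Syt4.

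Of 56 other genes of the release machinery, 49 were tested between vGat and vGlut2, and 8 were higher and 4 lower in vGat neurons, with a median log2 difference of 0.27 against -0.01 over all genes. Over all genes tested, 4.32% were higher and 4.53% lower. The priming and active zone genes gave 5 of these calls, all higher, among 13 tested. Unc13c, a priming factor of the Munc13 family, was higher by 2.13 (SE 0.24, adjusted p = 2.18e-05), Cadps2, which primes dense-core vesicles, by 2.11 (SE 0.24, adjusted p = 1.80e-05), and Rph3a, the Rab3 effector rabphilin, by 1.84 (SE 0.20, adjusted p = 1.36e-05). Stxbp6 (amisyn, a SNARE-binding protein) was higher by 2.82 (SE 0.54, adjusted p = 0.00262) and Syn3, a synapsin, by 1.45 (SE 0.23, adjusted p = 0.000502). The 4 lower genes were Synpr (synaptoporin, a vesicle membrane protein, -1.50, adjusted p = 0.000195) and 3 further synaptotagmins, Syt5 (-1.46, adjusted p = 0.00561), Syt6 (-1.23, adjusted p = 0.0108) and Syt16 (-0.96, adjusted p = 0.0191). Cplx3 and Cplx4 did not pass the count filter.

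In wild type, 41 of these genes were tested, and 7 were higher and 2 lower in inhibitory cells, with a median log2 difference of 0.19 against 0.00 over all genes. The higher genes with the largest differences were Unc13c (2.06), Syt10 (1.93, adjusted p = 1.90e-05), Rph3a (1.43), Syn3 (1.23) and Rab3c (1.21, adjusted p = 1.02e-05), and the lower ones were Syt16 (-0.93) and Synpr (-0.84). Unc13c, Rph3a, Syn3, Rab3c and Cadps were called higher in both comparisons, and Synpr and Syt16 lower in both. The 5 higher genes are 62.5% of the 8 called higher in the reporter lines and 71.4% of the 7 in wild type. The same overlap over all genes was not counted, so these shares have no background to be read against. Against wild type, 10 of 45 release genes tested were higher and 2 lower in inhibitory vGat cells. In excitatory vGlut2 cells 6 of 42 were higher and 2 lower. The shares over all genes were 8.39% higher and 12.9% lower for vGat, and 5.08% higher and 10.4% lower for vGlut2. The neuron markers, of which Snap25 is also on this list, summed to 2383 to 3863 CPM in the wild-type sets, below every vGat set and overlapping the vGlut2 sets, and their part in these counts was not tested. Syp, the vesicle protein synaptophysin, was higher in both (0.84 and 0.82), and Sypl (-1.66 and -1.80) and Syt11 (-0.90 and -1.16) were lower in both. No gene of this list was called in the interaction or the age fits by edgeR, where 5 and 1 had an unadjusted p under 0.05.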

How the data were processed

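The deposited table gives UMI counts per gene and cell, with no normalization. Per the submitters' processing notes Cell Ranger and the mm10 genome were used, and the sources used here give no further step. The cell titles have the form of a chip number and a well, whereas the protocol in the labels reads like a droplet method, so how cells were captured is unclear. A capture run here means cells that share the number in the title. The members and gene lists were chosen with earlier results of these data known. Counts were summed per animal set, and per set and class with at least 10 cells. Sets are the replicates. Nothing says which animal a cell came from, so p-values measure only the spread between sets. Sums were tested with edgeR 4.0.16 (quasi-likelihood, TMM, filterByExpr) in R 4.3.3, with Benjamini-Hochberg adjustment over all genes. Where inhibitory and excitatory wild-type cells were compared with each other, they were paired by set, since both came from the same sets. The interaction fit did not use this pairing. Alternatives used DESeq2 1.42.0, limma 3.58.1, other filters and scaling, left-out sets, and cells thinned to 3000 UMIs. Named genes were all members, up to 5 called release genes per direction, and the 3 genes most like each member among those with at least 50 CPM in a type and 300 UMIs. The test was also run on simulated counts with known changes, drawn from 1 mean profile. These counts held no effect of set or run, so they do not bear on the pairing or on line against run. Coding sequences are from GENCODE M21 and promoter windows, found for 7 of the members, from RefSeq. No doublet caller was run.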

Additional observations from a re-analysis of the deposited data

Results flagged for a closer look

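In 3 of 24 sets of values for a member in a group of animal sets, 1 animal set lay far from the others by Dixon's criterion, which chance alone meets in about 1 of 20. Cplx2 in inhibitory wild-type cells was 113.1 CPM in the 21-day set, against 190.7 to 240.8 CPM in the other 6. Syt2 in inhibitory wild-type cells was 38.9 CPM in the 22-day set labelled female, against 7.32 to 18.5 CPM in the others. Sv2c in excitatory wild-type cells was 10.3 CPM in the same set, against 0 to 3.54 CPM in the other 8.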

How the results depend on the processing

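No member's difference changed sign under any alternative in a comparison where it was called. Between the reporter lines, 7 members were called. Leaving out 1 set at a time gave 3 to 8, with 4.43% to 13.8% of all genes called. The other alternatives gave 5 to 8 calls, with 3.2% to 9.8% of all genes called. DESeq2 gave 6 (6.77% of all genes). Thinning gave 5 (7.61% of all genes), and Syt2 and Sv2c were not tested there. In wild type, 3 members were called with the set as a block (5.64% of all genes) and 3 without the block in the paired sets (3.87%). There were 3 calls with each set left out (4.29% to 5.61% of all genes). Thinning gave 4 (Syt4 added, 6.42% of all genes), as did the fit with no count filter (Sv2b added, 3.46%). When types with at least 3 cells in a set weighed the same, 0 members and 2.46% of all genes were called, and the cause was not tested. Among excitatory cells, vGlut2 against wild type gave 0 to 1 calls with 1 set left out, where 5.84% to 16.8% of all genes were called. Cplx1 outnumbered Cplx2 in 14 types, in 16 with wild-type cells only, in 9 with reporter-line cells only and in 12 after thinning. Low UMI totals limit Syt2, Sv2b and Sv2c.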
